A study of Mus musculus with 12 samples.

Results

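Mesenchymal progenitors of skeletal muscle, the stromal cells that lie between the fibres, are recognised by proteins on their surface, among them the sialomucin CD34, the lipid-anchored protein Sca1 (gene Ly6a) and the receptor PDGFRα. Muscle satellite cells and the myoblasts they give rise to carry an overlapping set, in which VCAM1 and NCAM1 are common, and primary satellite cells are usually sorted as VCAM1-positive and Sca1-negative cells. The same proteins act as adhesion molecules, growth factor receptors and co-receptors, so that their levels bear on how a cell meets its neighbours and its matrix.

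A group of 10 genes for such surface markers was examined in RNA-seq of C2C12 cells, a mouse myoblast line that proliferates in growth medium (GM) and fuses into myotubes after serum withdrawal. The genes were Cd34, Ly6a, Pdgfra, Pdgfrb, Vcam1, Thy1, Eng, Cd44, Ncam1 and Mcam. They were chosen by gene name, as markers of progenitor and stromal cells, and the list was drawn up with the authors' fold changes of Cd34 and Ly6a in both methyltransferase lines already known. A row in at least 1 of the 3 deposited tables was found for 8 of the 10, among 10289 genes with a row in any table.

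RNA-seq was made from 4 groups with 2 libraries each. GFP-overexpressing C2C12 cells, the negative control, were sequenced in GM (day 0) and after 4 days in differentiation medium (D4), and Mettl3- and Mettl14-overexpressing C2C12 cells were sequenced in GM. METTL3 and METTL14 form the core of the enzyme that places N6-methyladenosine (m6A) on mRNA. All of these were lentivirus-infected, puromycin-selected stable lines made with 1 kind of vector, which has a CMV promoter and carried the mouse Mettl3 cDNA, the mouse Mettl14 cDNA or GFP. Whether a line was 1 clone is not given in the sources used here. For the Mettl14-overexpressing libraries the titles give day 0 and the time point field gives D4. They are treated as GM libraries, as the titles and the study's own description of the comparison give them. The 4 MeRIP-seq libraries of the series were not analysed here.

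Each deposited table belongs to 1 comparison made by the authors and keeps the genes at FDR ≤ 0.05. The tables compare D4 with GM in GFP-overexpressing cells, METTL3-overexpressing with GFP-overexpressing cells in GM, and METTL14-overexpressing with GFP-overexpressing cells in GM. They are called the D4, METTL3 and METTL14 tables. The measurement used from them is the authors' mean normalized count, in which the counts of each library are divided by a size factor and averaged over libraries. Levels per group are not given, because the authors' comparison columns were left aside. Values of single libraries are not in the tables, so no spread between replicates could be computed and no new test run. For the same reason the overexpressed Mettl3 and Mettl14 could not be checked library by library. The depth of the libraries is not in the tables either. Genes with rows in several tables carried 1 and the same mean in them, to within a relative difference of 4.77e-10, as a mean over 1 common set of libraries would give. Of the 8 RNA-seq libraries 6 were grown in GM, and the mean leans on that stage if all of them entered it. The authors' fold changes and p-values were not used, and a row in a table is given here only as the authors' selection, without a direction or a size of change. The GFP-overexpressing GM libraries are the control of every comparison, so the rows of the 3 tables are not independent of each other.

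Genes of the labelled cell type were looked at first. All of the 8 myoblast and myotube markers had a row in some table. Their median was 1514 mean normalized counts per kilobase of the longest transcript, with a range from 284.7 for Myf5, a transcription factor of early myoblasts, to 7978 for Des, the muscle intermediate filament desmin. Myod1, the transcription factor that commits cells to muscle, stood at 991.6 and Mymk, the fusogen of myoblasts, at 5745 mean normalized counts per kilobase. None of the 6 blood markers had a row (0 of 6, among them Ptprc, the pan-leukocyte antigen). Of the 6 endothelial markers 2 had a row, at 12.19 for Tek, an angiopoietin receptor, and 1.3 for Vwf, the von Willebrand factor. A gene without a row may be unexpressed or may simply not have passed the authors' limit, and the tables do not tell these apart. A row marks a gene selected as changed in a comparison. Of the 8 myoblast and myotube markers 7 had a row in the D4 table, which compares cells before and after differentiation. That table held 95.5% of all genes with a row in any table. The counts of rows per list therefore do not test the cell type. No share over all tested genes can stand beside them, because the tables keep only selected genes.

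The surface markers covered a wide range of levels in the mean pooled over libraries of all groups. Their order within a group or stage may differ and was not worked out here. Pdgfrb, the receptor for PDGF-B and PDGF-D dimers, had the highest pooled mean normalized count of the group, 8527. Ncam1, a homophilic adhesion molecule of myoblasts and neurons, followed at 7195, and Cd44, the receptor for hyaluronan, at 6209. These 3 genes lay at the 98.3, 97.9 and 97.5 percentiles of all listed genes. Cd34 stood at 1418 (80.1 percentile), Vcam1 at 1017 (71.9 percentile), Ly6a at 750.1 (63.9 percentile) and Pdgfra at 525.1 (53.5 percentile). Mcam, the adhesion molecule CD146 of pericytes and endothelium, was the lowest at 55.05 (19.5 percentile). The median over the 8 markers with a row was 1217, against 458.1 over all listed genes (interquartile range 102.8 to 1143). Genes of the METTL3 table, which held 7 of the 8, ran higher than all listed genes, with a median of 620.2 and an upper quartile of 1479. Of the 8, 4 were at or above the upper quartile of all listed genes and 1 was below their median. The markers without a row, Thy1 and Eng, have no value and enter none of these counts.

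**Figure D1:**
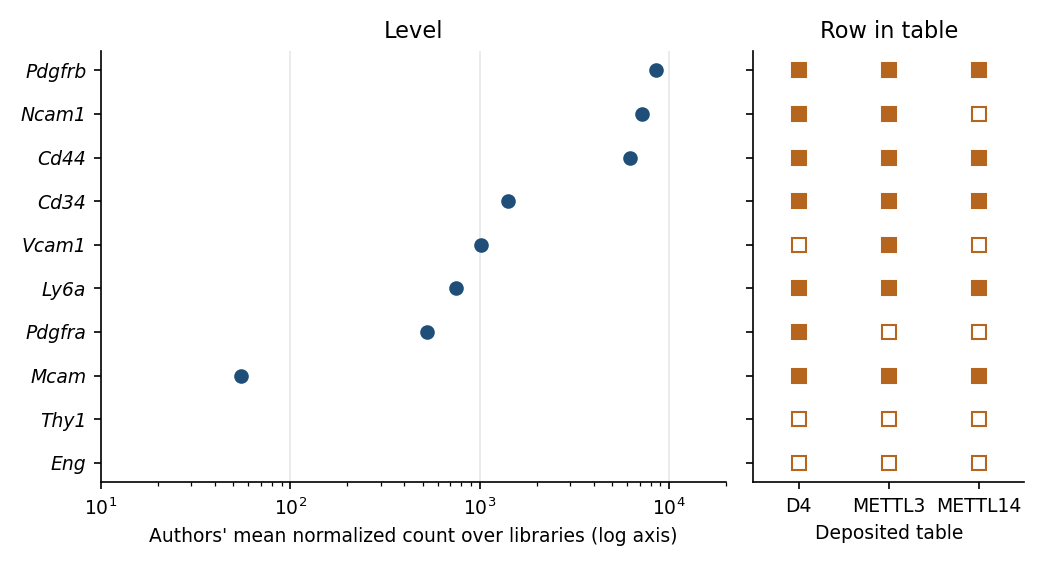
Authors' mean normalized count of each surface marker over the RNA-seq libraries (left, log axis) and the deposited tables that hold a row for it (right, filled square for a row, open square for none). Points are single pooled means with no error, from 55.05 for Mcam to 8527 for Pdgfrb, and Thy1 and Eng have neither a value nor a row.

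**Figure D2:**
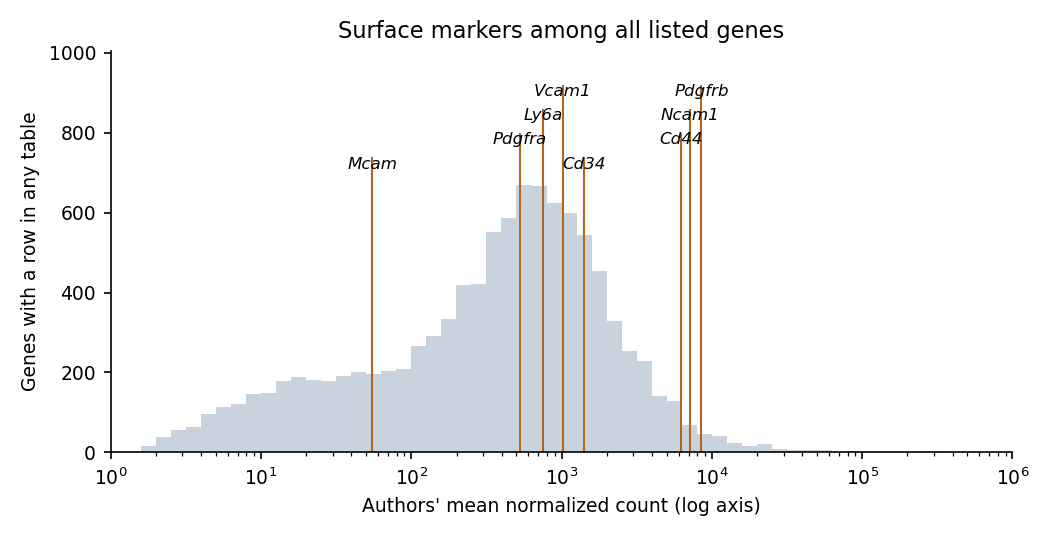
Number of genes with a row in any table (vertical axis) by the authors' mean normalized count (log axis), with a line for each surface marker. Pdgfrb, Ncam1 and Cd44 lie in the upper tail, Cd34, Vcam1, Ly6a and Pdgfra near the bulk of the genes, and Mcam in the lower part.

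m6A is placed by METTL3 and METTL14 on adenosines in a short consensus, of which GGACT, written here as DNA, is the best known form. The METTL3 and METTL14 tables compare lines that overexpress these enzymes with GFP-overexpressing cells. This motif was therefore counted on the sense strand of the transcript with the longest coding sequence of each marker, in GENCODE M21 on GRCm38. All of the 10 markers had a match, as did 92% of the 9245 protein-coding transcripts of listed genes that were searched, and the median of those was 1.05 matches per kilobase. Pdgfrb had 10 matches (1.84 per kilobase, 84.8 percentile), Thy1 had 3 (1.73 per kilobase, 81.6 percentile), Cd44 had 9 (1.60 per kilobase, 77.5 percentile), Pdgfra had 8 and Eng had 4 (1.17 per kilobase in each, 57.5 percentile), and Ncam1 had 7 (1.07 per kilobase, 50.9 percentile). Ly6a had 1 in its short transcript (1.05 per kilobase, 49.7 percentile) and Vcam1 had 3 (0.865 per kilobase, 38.0 percentile). Cd34 (0.407 per kilobase, 13.5 percentile) and Mcam (0.335 per kilobase, 11.2 percentile) had 1 match each. Of all the matches 24 lay in coding sequence, 19 in 3′ UTRs and 4 in 5′ UTRs. Only GGACT was counted, and not the other forms of the consensus. A match is a description of the sequence and not a methylated site.

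**Figure D3:**
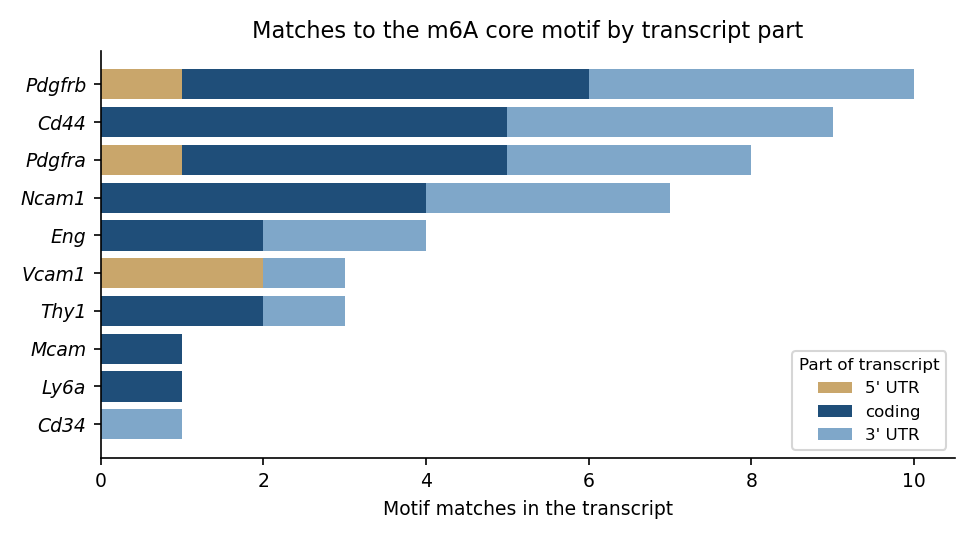
Number of GGACT matches (horizontal axis) in the transcript with the longest coding sequence of each surface marker, by part of the transcript. Other forms of the m6A consensus were not counted. Pdgfrb, Cd44 and Pdgfra have 8 to 10 matches, and Cd34, Ly6a and Mcam have 1 each, which for Cd34 is in the 3′ UTR.

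The matches of Cd34, Ly6a and Mcam are shown because these markers had a single match and a row in each table, and those of Vcam1 because none of its matches was in coding sequence. Each line gives 25 bases of the mRNA in the sense direction, with 10 bases on either side of the motif, which is in capitals. The motif is at chr1:194960243-194960247 (+ strand, exon 8 of 8) in the 3′ UTR of Cd34, at chr15:74996559-74996563 (- strand, exon 3 of 4) in the coding sequence of Ly6a and at chr9:44136636-44136640 (+ strand, exon 2 of 16) in the coding sequence of Mcam. In the Ly6a and Mcam lines the flank crosses an exon junction. Vcam1 has the motif at chr3:116129618-116129622 and chr3:116129569-116129573 (- strand, exon 1 of 9) in its 5′ UTR and at chr3:116110523-116110527 (exon 9) in its 3′ UTR. In the Vcam1 labels the start is the 5′ end of the transcript and not the start codon.
Cd34: actgttcctgGGACTcttcaccttg
Ly6a: aagagctcagGGACTggagtgttac
Mcam: tcagccaagtGGACTggtttttgat
Vcam1, 5′ UTR, nearer the start: gtgtttcccaGGACTcagaatgact
Vcam1, 5′ UTR, farther from the start: gttaacgtggGGACTtggctggctg
Vcam1, 3′ UTR: agtgttgcttGGACTgactgttgta

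Longer transcripts give more reads, so pooled levels of different genes were compared per kilobase. With the longest annotated transcript of each gene as its length, Pdgfrb remained first at 1572 mean normalized counts per kilobase. Cd44 (1106) and Ncam1 (1096) were within a ratio of 1.01 of each other, and their order has no support without an error. Ly6a, whose longest transcript has only 955 bases, moved up to 785.5 mean normalized counts per kilobase and so passed Cd34 at 462.9. Vcam1 (248.7), Pdgfra (76.84) and Mcam (18.42) closed the order. Per kilobase the median of the 8 markers was 624.2, against 135.5 over the 10282 listed genes whose length was known. On this scale 5 markers were at or above the upper quartile of 337.1, and Pdgfra and Mcam were below the median.

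The order changed little with the length that was used. Among the 28 pairs of markers, 28 kept their order with the union of all exons and 27 with the longest coding sequence, where Cd44 (2653) passed Pdgfrb (2577). For Cd34 and Vcam1 the longest annotated transcript is a model of 2 exons and of 1 exon. With the transcript that carries the longest coding sequence they stood at 577.8 and 293.0 mean normalized counts per kilobase, in the same places of the order. Because no error is available, it cannot be said which neighbours differ beyond the spread between libraries.

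**Figure D4:**
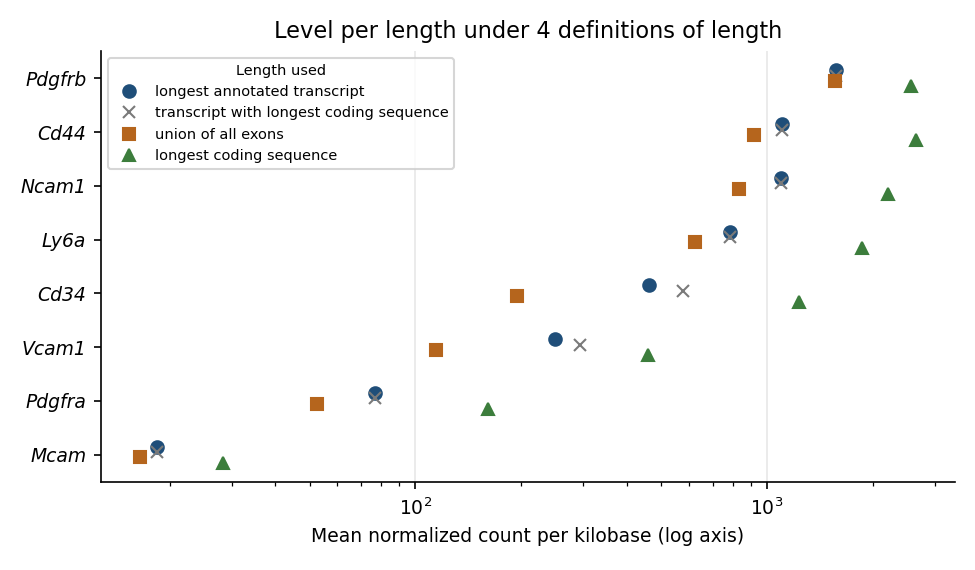
Mean normalized count per kilobase (log axis) of the 8 surface markers with a row, under 4 definitions of gene length shown by symbol. The order is the same under every definition except that Cd44 lies above Pdgfrb per kilobase of coding sequence.

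The PDGF receptors are tyrosine kinases that bind dimers of PDGF ligands. PDGFRα is a marker of mesenchymal progenitors and PDGFRβ of pericytes and other mural cells. Both are on the list of progenitor and stromal markers used here. Pdgfrb (ENSMUSG00000024620, chromosome 18 of GRCm38, 61045150 to 61085061, + strand) exceeded Pdgfra (ENSMUSG00000029231, chromosome 5, 75152292 to 75198215, + strand) by a ratio of 20.5 in mean normalized counts per kilobase of the longest transcript. The ratio lay between 16.0 and 29.7 under the other lengths. Pdgfrb had a row in the D4, METTL3 and METTL14 tables, and Pdgfra had one in the D4 table only. All of the 4 ligand genes had a row in a table. Pdgfa and Pdgfc stood at 530.7 and 347.2 mean normalized counts per kilobase and had rows in the D4 and METTL3 tables. Pdgfd (59.42) had a row in every table, and Pdgfb (30.95) in the METTL3 and METTL14 tables. All of the 4 ligand genes were below Pdgfrb in level per kilobase under each of the lengths used, Pdgfa and Pdgfc were above Pdgfra, and Pdgfb was below it. Pdgfd was below Pdgfra per kilobase of the longest transcript (59.42 against 76.84) and above it per kilobase of the transcript with the longest coding sequence (103.7 against 76.84), of the exon union (58.99 against 52.38) and of coding sequence (167.6 against 160.7).

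CD34 is a mucin-like protein of progenitor and endothelial cells, related to podocalyxin and endoglycan. Cd34 (ENSMUSG00000016494, chromosome 1, 194938819 to 194961279, + strand) had a row in all of the 3 tables. Its relatives Podxl and Podxl2 were lower, at 33.97 and 27.55 mean normalized counts per kilobase against 462.9 for Cd34. Podxl had rows in the D4 and METTL14 tables and Podxl2 in the D4 table.

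Sca1 is a small protein of the Ly6 family, held in the membrane by a lipid anchor. Ly6a (ENSMUSG00000075602, chromosome 15, 74994877 to 74998031, - strand) also had a row in all of the 3 tables. Cd34 had 1.89 times the mean normalized count of Ly6a, whereas per kilobase of the longest transcript the ratio was 0.589. It stayed below 1 under the other lengths, from 0.312 to 0.736. Among its relatives, Ly6e was higher, at 2173 mean normalized counts per kilobase, with a row in each table, and Ly6c1 was at 379.8, with rows in the D4 and METTL3 tables. Ly6k had no row. Ly6 genes are close copies, and reads shared between them may have been lost or split in the counting, so the levels of Ly6a and Ly6c1 are uncertain.

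VCAM1, NCAM1 and MCAM are adhesion molecules of the immunoglobulin superfamily. Ncam1 (ENSMUSG00000039542, chromosome 9, 49502136 to 49798925, - strand) had rows in the D4 and METTL3 tables. Vcam1 (ENSMUSG00000027962, chromosome 3, 116109949 to 116129688, - strand) had one in the METTL3 table only. Mcam (ENSMUSG00000032135, chromosome 9, 44134469 to 44142727, + strand) had one in each table. In mean normalized counts per kilobase Ncam1 exceeded Vcam1 by a ratio of 4.41 and Mcam by a ratio of 59.5. If the mean runs over the 8 libraries, the mean of any group of 2 cannot exceed 4 times the pooled mean, which for Mcam is 220.2 normalized counts and so below the pooled means of all the other listed markers. VCAM1 binds the integrin α4β1, whose subunit genes were unequal, with Itga4 at 9.071 and Itgb1 at 7040 mean normalized counts per kilobase. NCAM1 carries polysialic acid made by St8sia2 and St8sia4 and signals through the kinase FYN and the receptor FGFR1. St8sia2 was at 3.048, Fyn at 538.4 and Fgfr1 at 1107 mean normalized counts per kilobase, and St8sia4 had no row.

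CD44 binds hyaluronan, which is made by the synthases HAS1, HAS2 and HAS3, and osteopontin, the product of Spp1. Cd44 (ENSMUSG00000005087, chromosome 2, 102811141 to 102901665, - strand) had a row in each table. Of the synthases Has1 was at 28.17 mean normalized counts per kilobase, with a row in the METTL14 table, and Has2 and Has3 had none. Spp1 was at 13134 mean normalized counts per kilobase, the highest of the partner genes, with a row in the D4 table only.

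Thy1 (ENSMUSG00000032011, chromosome 9, 44043384 to 44048579, + strand), a lipid-anchored protein of fibroblasts and T cells, and Eng (ENSMUSG00000026814, chromosome 2, 32646595 to 32682669, + strand), a co-receptor for ligands of the TGF-β family, had no row in any table. Endoglin acts with the receptors TGFBR2, TGFBR1 and ACVRL1. Tgfbr2 was at 501.8 mean normalized counts per kilobase with a row in each table, and Tgfbr1 and Acvrl1 had no row. The TGF-β genes Tgfb1, Tgfb2 and Tgfb3 were at 857.2, 252.1 and 671.4 mean normalized counts per kilobase.

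By table, 7 of the 10 surface markers had a row in the D4 table, which held 95.5% of all genes listed anywhere. The METTL3 table held 7 of the 10 and 17.0% of all listed genes. The METTL14 table held 5 of the 10 and 10.7% of all listed genes. Those shares are over genes with a row in some table. The like counts are over the 8 markers with a row, 7, 7 and 5 in the D4, METTL3 and METTL14 tables. Nothing is read from these counts, because the list was drawn up with results of the comparisons known, and nearly every listed gene had a row in the D4 table. The 5 markers with a row in all of the 3 tables were Cd34, Ly6a, Pdgfrb, Cd44 and Mcam, and 644 genes in all had such rows. Of the 30 partner genes (ligands, receptors and relatives of the markers) 22 had a row, with 18 in the D4 table, 11 in the METTL3 table and 11 in the METTL14 table.

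Other mesenchymal genes gave a mixed picture in level. Of the 10 in the list 9 had a row, with a median of 119.7 mean normalized counts per kilobase, below the 624.2 of the surface markers with a row. Col3a1, a fibrillar collagen, was at 15626 and Dcn, the proteoglycan decorin, at 591.7, whereas Osr1, a transcription factor of fibro-adipogenic progenitors, was at 54.23 and Pi16 and Dpt, genes of adventitial fibroblasts, were at 9.447 and 28.71 mean normalized counts per kilobase. Tcf21 had no row. The surface markers Alcam, Cd248 and Nt5e of this list were at 270.2, 262.1 and 119.7. Of the 4 pericyte markers, Cspg4 was at 160.7, Rgs5 at 12.78 and Abcc9 at 0.459 mean normalized counts per kilobase, and Kcnj8 had no row. Of the 9 genes with a row, Col3a1, Dcn, Alcam and Cd248 were above the median of all listed genes per kilobase (135.5), and Nt5e, Lum (61.63), Osr1, Dpt and Pi16 were below it. Among the surface markers Pdgfra was below that median per kilobase (37.0 percentile) and above the median by count (53.5 percentile). These levels do not settle a cell type, and the genes are called surface markers here. In bulk RNA a low mean from every cell and a high level in a few cells cannot be told apart.

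**Figure D5:**
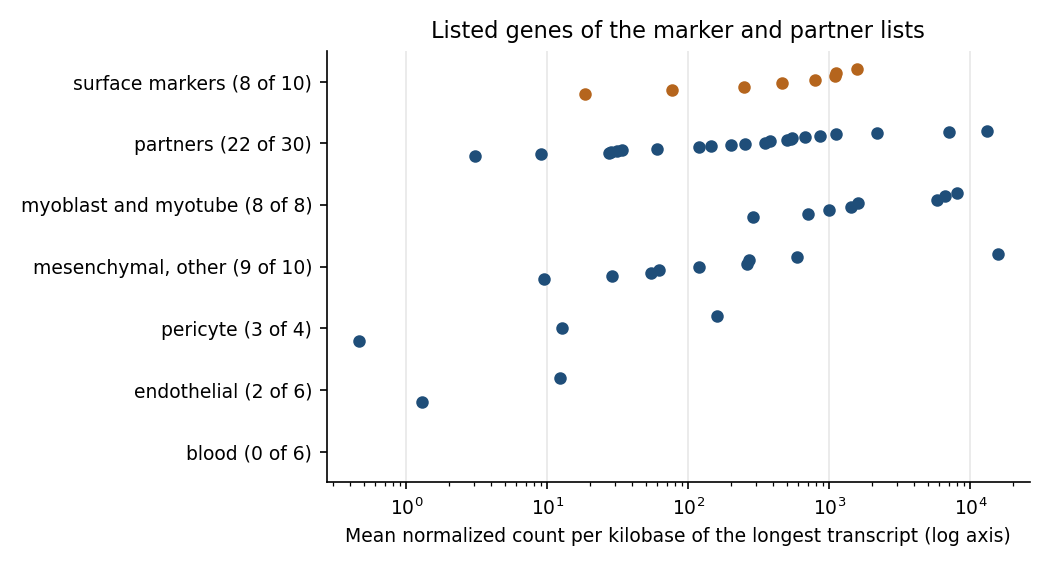
Mean normalized count per kilobase of the longest transcript (log axis) for each gene with a row, by list, with the number of genes with a row of the number in the list. Heights within a list only keep points apart. The surface markers (18.42 to 1572) overlap the myoblast and myotube markers (284.7 to 7978) and extend below them, and no blood marker has a row.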

How the data were processed

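RNA was sequenced from 8 libraries of C2C12 stable lines (4 groups of 2). Reads were aligned to GRCm38 with hisat2, counted per gene with featureCounts (Ensembl annotation version 102) and compared with DESeq2 by the authors, without program versions in the sources used here. The value used is a signal deposited by the authors, the mean over libraries of counts divided by size factors. The 3 tables also hold 5 columns of the authors' comparisons (log2 fold change, its standard error, the Wald statistic and 2 p-values) and, in 2 tables, 1 unheaded value each, none of which was used. No value per library was available, so no test was made.

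Rows were matched by gene name. Gene positions and lengths came from GENCODE M21, in which 10282 of 10289 listed identifiers were found. This is the same build but another release than the authors used. Percentiles give the share of listed genes below a value, with ties split evenly. All surface markers, and any listed gene of the partner and cell type lists, could be named. The members and lists were chosen with earlier results of these data known. The routines were tested on made-up values. Calculations used Python 3.11.15, pandas 2.3.3, NumPy 2.4.6 and matplotlib 3.10.9.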

Additional observations from a re-analysis of the deposited data

How the results depend on the processing

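Markers with rows in several tables carried the same mean in each, as 1 common mean must, so this tests nothing. Pdgfra and Vcam1 had a row in only 1 table. Matching by Ensembl identifier gave the rows found by name. The shares of genes per table stayed within 1.5 times with protein-coding genes or genes with a mean of at least 100 as the base. The median percentile of the 8 markers, 76.0 over all listed genes, was 73.6 among protein-coding genes, 74.4 among genes with a mean of at least 10 and 86.0 per kilobase of the longest transcript, the last chosen after seeing the data, as were the length of the transcript with the longest coding sequence and a limit of 100 on the mean, which left 7 markers. No paired analysis was possible because the tables hold 1 pooled mean per gene and no value per replicate, and for the same reason no library could be left out.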
